A study of Danio rerio with 8 samples.

Results

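The mRNAs described here are 6 transcripts encoded by mitochondrial DNA (mtDNA) in zebrafish: mt-co1 (ENSDARG00000063905), mt-co2 (ENSDARG00000063908), mt-co3 (ENSDARG00000063912), mt-cyb (ENSDARG00000063924), mt-atp6 (ENSDARG00000063911) and mt-atp8 (ENSDARG00000063910). They were chosen by their Ensembl IDs as the mtDNA-encoded mRNAs of respiratory chain complexes III, IV and V. They are 6 of 37287 features in the deposited table, of which 31901 carry an Ensembl ID, and all 6 had values in all 8 libraries. The rule of choice used no measured value, though it was set with earlier results of these data known.

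Each library was made by patch-seq, in which the content of 1 neuron is drawn into a recording pipette and its polyadenylated RNA is amplified and sequenced. The neurons lay in CaD, a caudal brainstem nucleus with neurons that project to the spinal cord, and were labeled by a dextran dye carried back from the spinal cord. They came from larvae of 12 to 14 days post fertilization of the transgenic line labelled Tg (gly2:GFP), named Tg(Glyt2:GFP) in the study, in which the Glyt2 promoter drives GFP. The 8 libraries, named M1, M2, M5 and M6, and further M9, M11, M16 and M17, form 1 group, with no second genotype or treatment. They are taken as each from a different fish, which is uncertain for M1, as given below.

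In vertebrates, mtDNA is transcribed inside the mitochondrion as long precursors that are cut into single messengers, largely at the tRNAs that lie between them. The genes of mt-atp8 and mt-atp6 overlap and leave the precursor as a shared messenger. The proteins form the cores of enzymes whose other subunits come from nuclear genes: mt-co1, mt-co2 and mt-co3 of cytochrome c oxidase (complex IV), which passes electrons to oxygen, mt-cyb of the cytochrome bc1 complex (complex III), and mt-atp6 and mt-atp8 of the membrane part of ATP synthase (complex V). Neurons depend heavily on this pathway for the ATP that ion pumps consume.

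Levels are FPKM, read numbers scaled to the length of the feature and to the reads of the library. The reads counted per library, recovered from these values, numbered 47723986 in M1 and between 9861756 in M16 and 13761924 in M6 in the other 7. For each of the 6 mRNAs, M1 held more reads than M11, M16 and M17 together. These libraries may share reads, so M1 may not be a separate cell. Results are therefore given over the 7 libraries without M1 (n = 7), with all 8 beside them where M1 bears on the value. The labels call the cells glycinergic neurons. From patch-seq, the study reports that CaD neurons express markers of glycinergic transmission and of V0d neurons, an inhibitory type whose axons cross the midline. Of 7 neuronal genes listed, 3 were matched to 1 ID and the others were not looked at. Of these 3, elavl3 and elavl4 reached between 103 and 283 FPKM in all 8 libraries. The third, syt1a, a synaptic vesicle gene, had a median of 3.80 FPKM and reached 1 FPKM in 6 of 8, not in M16 and M17. Of the glycinergic markers, slc6a5, which encodes the glycine transporter Glyt2, reached 1 FPKM only in M11, at 1.22. The vesicular transporter of glycine and GABA, slc32a1, did so in 4 of 8. The other glycine transporter gene looked at, slc6a9 (Glyt1), reached 1 FPKM in 6 of 8, with a median of 9.89 FPKM and at most 19.9 FPKM. The GABA synthesis gene gad2, 1 matched of 2 listed, reached 1 FPKM in 4 of 8 and was highest in M11, at 56.7 FPKM. The 2 glutamatergic markers listed were not matched, so glutamatergic identity was not looked at. The 3 oligodendrocyte and myelin markers mbpa, plp1b and mpz were above 1 FPKM in all 8 libraries, with a summed level between 502 FPKM in M5 and 36898 FPKM in M1. Most of this was mbpa, between 488 FPKM in M5 and 36649 FPKM in M1. plp1b and mpz reached at most 138 and 136 FPKM. The 3 endothelial markers cdh5, kdrl and pecam1 summed to at most 1.29 FPKM. The 3 microglial markers csf1ra, p2ry12 and apoeb, matched of 4 listed, summed to between 2.30 FPKM in M9 and 241 FPKM in M16. The astroglial markers gfap and s100b, the 2 matched of 5 listed, summed to between 26.5 FPKM in M17 and 1167 FPKM in M11. How much of the RNA of a library, that of the 6 mRNAs included, came from other cells was not tested. Where a cell is named below, the values are those of its library.

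The 6 mRNAs together held between 7.21% and 16.98% of all FPKM of a library. The share was 13.97% in M1, 9.97% in M2, 7.49% in M5 and 7.21% in M6, then 12.1% in M9, 9.91% in M11, 12.7% for M16 and 16.98% in M17. Cells M5 and M6 were lowest and M17 highest, a 2.36-fold range. The share averaged 10.9% ± 3.38 (SD, n = 7; median 9.97%), and 11.3% ± 3.31 with M1 (SD, n = 8; median 11.02%). By counted reads, which are not divided by length, the share lay between 3.92% in M5 (95% Wilson interval 3.91 to 3.94%) and 9.88% in M17 (interval 9.86 to 9.90%). Such intervals, which hold only the error of counting, were far narrower than the spread between cells.

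The size of the share depended on 1 other feature. The feature with the highest median FPKM, which no table used here names, took between 20.4% of all FPKM in M6 and 52.3% in M17, so it was lowest and highest in the same cells as the 6 mRNAs. Without it in the total, the 6 mRNAs held between 9.05% in M6 and 35.6% in M17. Their summed FPKM was between 0.259 and 0.383 times that of this feature. More mitochondrial RNA in a cell and less of its other RNA cannot be told apart from shares of a total.

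**Figure D1:**
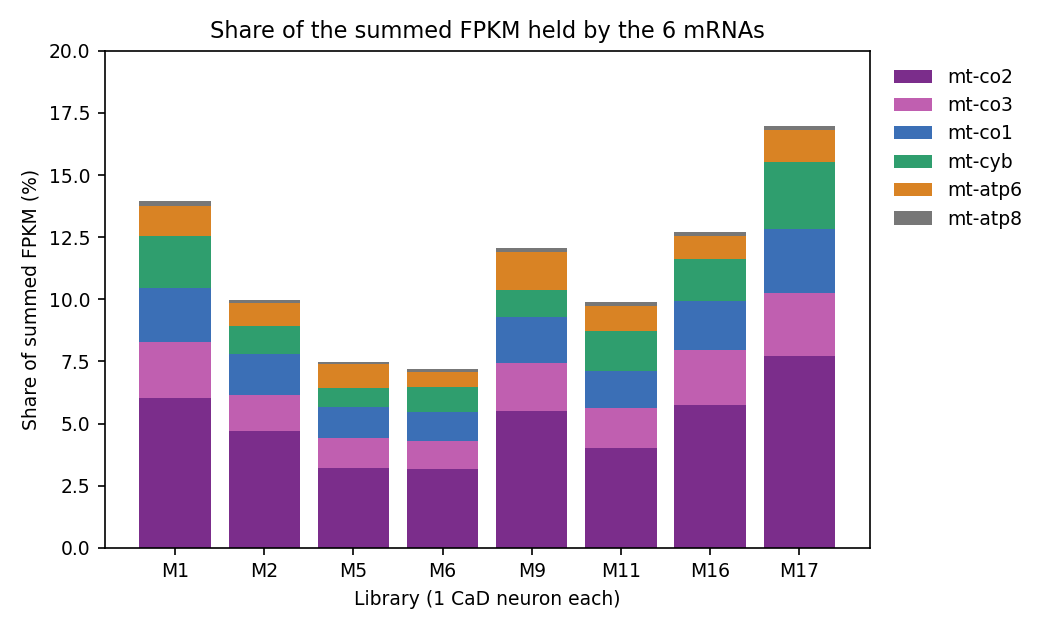
Share of summed FPKM (%) held by the 6 mtDNA-encoded mRNAs, as 1 stacked bar for each of the 8 libraries with 1 colour per mRNA. The bars reach between 7.21% in M6 and 16.98% in M17, and mt-co2 takes the largest part of each.

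Complex IV supplied the most abundant of the 6 mRNAs. mt-co2, which carries the copper site where cytochrome c gives up its electrons, had 39837 FPKM in M1, 29415 in M2, 19051 in M5 and 20159 in M6, then 31466 in M9, 27113 in M11, 35639 for M16 and 49860 in M17. It was the highest of the 6 in every library and ranked between 2 and 4 among all features. It averaged 30386 ± 10430 FPKM (SD, n = 7) and made up 44.4% ± 2.11 of the FPKM of the 6 (SD, n = 7).

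mt-co1, the catalytic subunit, had 14318 FPKM in M1, 10393 in M2, 7309 in M5 and 7460 in M6, then 10479 in M9, 9941 in M11, 12151 for M16 and 16553 in M17. mt-co3, the other core subunit of the oxidase, had 14949 FPKM in M1, 9097 in M2, 7120 in M5 and 7033 in M6, then 11122 in M9, 10750.0 in M11, 13776 for M16 and 16471 in M17. Both were high and low in the same cells as mt-co2. Their means were 10612 ± 3136 FPKM for mt-co1 and 10767 ± 3458 FPKM for mt-co3 (SD, n = 7), or 15.7% and 15.8% of the FPKM of the 6.

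mt-cyb, the only mtDNA-encoded subunit of complex III, had 13916 FPKM in M1, 7028 in M2, 4492 in M5 and 6490 in M6, then 6336 in M9, 10975 in M11, 10467 for M16 and 17393 in M17. It varied most between cells, over a 3.87-fold range, and averaged 9026 ± 4361 FPKM (SD, n = 7). Its part of the FPKM of the 6 lay between 9.17% in M9 and 16.5% in M11, whereas that of mt-co1 kept between 14.9% and 16.7%.

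mt-atp6, the subunit next to the rotating ring of ATP synthase, had 8039 FPKM in M1, 5640 in M2, 5735 in M5 and 3834 in M6, then 8595 in M9, 6588 in M11, 5809 for M16 and 8341 in M17. M9 was highest here, not M17. mt-atp8, a short subunit beside it in the membrane, had 1408 FPKM in M1, 793 in M2, 599 in M5 and 740.3 in M6, then 1117 in M9, 1288 in M11, 1028 for M16 and 1028 in M17. It was the lowest of the 6 in every library, ranked between 25 and 70 among all features, and made up 1.43% ± 0.319 of the FPKM of the 6 (SD, n = 7).

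**Figure D2:**
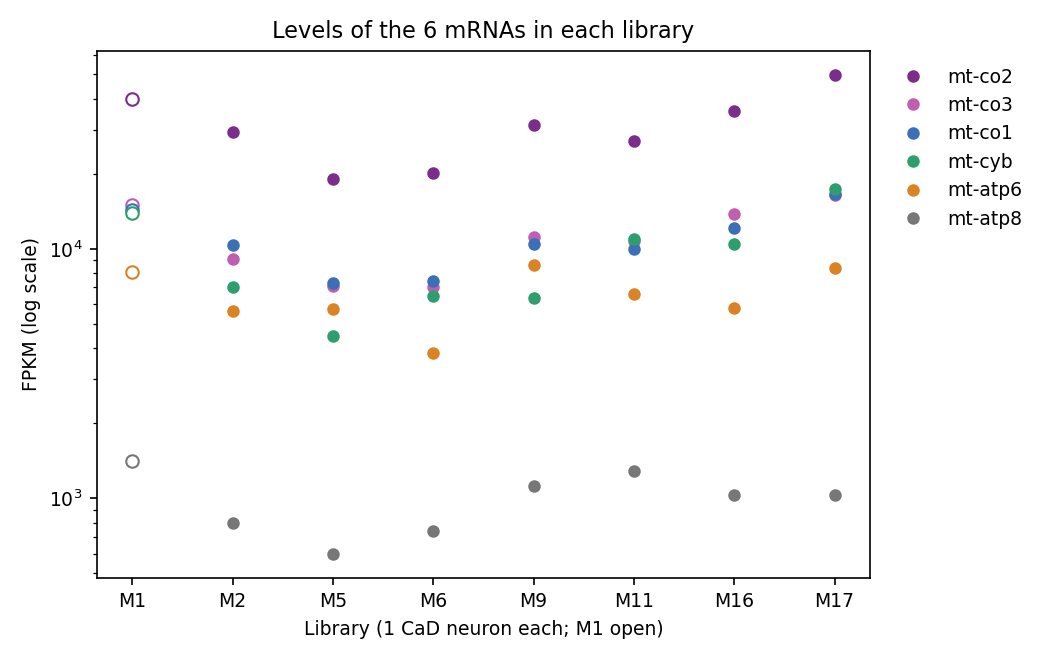
Level (FPKM, log axis) of each of the 6 mtDNA-encoded mRNAs in the 8 libraries, 1 point per library, open for M1. mt-co2 is highest in every library, between 19051 FPKM in M5 and 49860 FPKM in M17, and mt-atp8 lowest, between 599 FPKM in M5 and 1408 FPKM in M1.

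Counting error was small beside these differences between cells. The fewest reads behind any value were 1034, for mt-atp8 in M5, a counting error of 3.11% of its level. This error takes each read as independent and leaves out error of the amplification, which was not measured. Each of the other 5 mRNAs rested on 36094 reads or more in each library.

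The stoichiometry was read as the ratio of the FPKM of 2 mRNAs within a cell, which removes depth and total. It does not remove error that differs between mRNAs, such as in capture, length or counting, which was not measured. A difference called here is therefore one of FPKM and not of the number of messengers. All 15 pairs were compared with a two-sided exact sign-flip permutation test of the log2 ratio over the 7 libraries, adjusted after Benjamini-Hochberg over the 15. Of these, 11 differed, each in the same direction in 7 of 7 cells, with the smallest p the test allows, 0.0156 by exact permutation, and an adjusted p of 0.0213. They were the 5 pairs with mt-co2, the other 4 pairs with mt-atp8, and mt-co1 and mt-co3 each against mt-atp6. mt-atp8 and mt-atp6 lie on a shared messenger, so that pair compares counted reads per length and not separate messengers.

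Within complex IV, mt-co2 exceeded mt-co1 by a nearly fixed factor. The ratio was 2.83 in M2, 2.61 in M5 and 2.70 in M6, then 3.003 in M9, 2.73 in M11, 2.93 for M16 and 3.01 in M17, and 2.78 in M1. On the log2 scale the difference was 1.50 ± 0.081 (SD, n = 7), the narrowest of the 15. mt-co2 also exceeded mt-co3, by 1.49 ± 0.13 on the log2 scale (SD, n = 7). mt-co3 and mt-co1 lay close together, with a ratio between 0.875 in M2 and 1.13 in M16, and mt-co3 was the higher of them in 3 of 7 cells. Their log2 difference of 0.01 ± 0.13 (SD, n = 7) did not pass the test (adjusted p = 0.906, exact permutation).

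mt-cyb lay below mt-co2 in 7 of 7 cells, by between 2.47-fold and 4.97-fold, but its place beside mt-co1 and mt-co3 changed between cells. mt-co1 over mt-cyb ran between 0.906 in M11 and 1.65 in M9, with mt-co1 higher in 5 of 7 cells (adjusted p = 0.0901, exact permutation). mt-co3 over mt-cyb ran between 0.947 and 1.76, again higher in 5 of 7 (adjusted p = 0.0781, exact permutation). With M1 added, its adjusted p was 0.0488 by exact permutation over 8 libraries. That test takes the 8 libraries as independent, and M1 may share reads with M11, M16 and M17. No conclusion is drawn from it. mt-cyb over mt-atp6 had the widest spread of the 15, 0.60 on the log2 scale, with mt-atp6 higher in M5 and M9 and mt-cyb higher in M2, M6, M11, M16 and M17 (adjusted p = 0.151, exact permutation). Over the 15 pairs, the SD of the log2 ratio had a median of 0.35 (n = 7).

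mt-atp6 and mt-atp8 lay below all 3 complex IV mRNAs. mt-co3 exceeded mt-atp6 1.67-fold in geometric mean and mt-co1 exceeded it 1.66-fold, and both did so in 7 of 7 cells, while mt-cyb did so in 5 of 7. By FPKM, mt-atp6 exceeded its overlapping neighbour mt-atp8 6.75-fold, between 5.12-fold in M11 and 9.57-fold in M5. Since they lie on a shared messenger, this is not read as a ratio of separate messengers. The other ratios with mt-atp8 rest on the same low value. The length of mt-atp8 recovered from the values was 165 bases, against 684 for mt-atp6, and reads were 150 bp long. mt-atp8 took between 2.46% and 4.50% of the reads counted on the pair, against 19.4% of the pair's joint length. How reads in the overlap were assigned is not given in the sources used here, and the part of short length in the low value was not tested. With the reads of both put together, the joint level was between 0.354 and 0.665 times that of mt-co3.

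**Figure D3:**
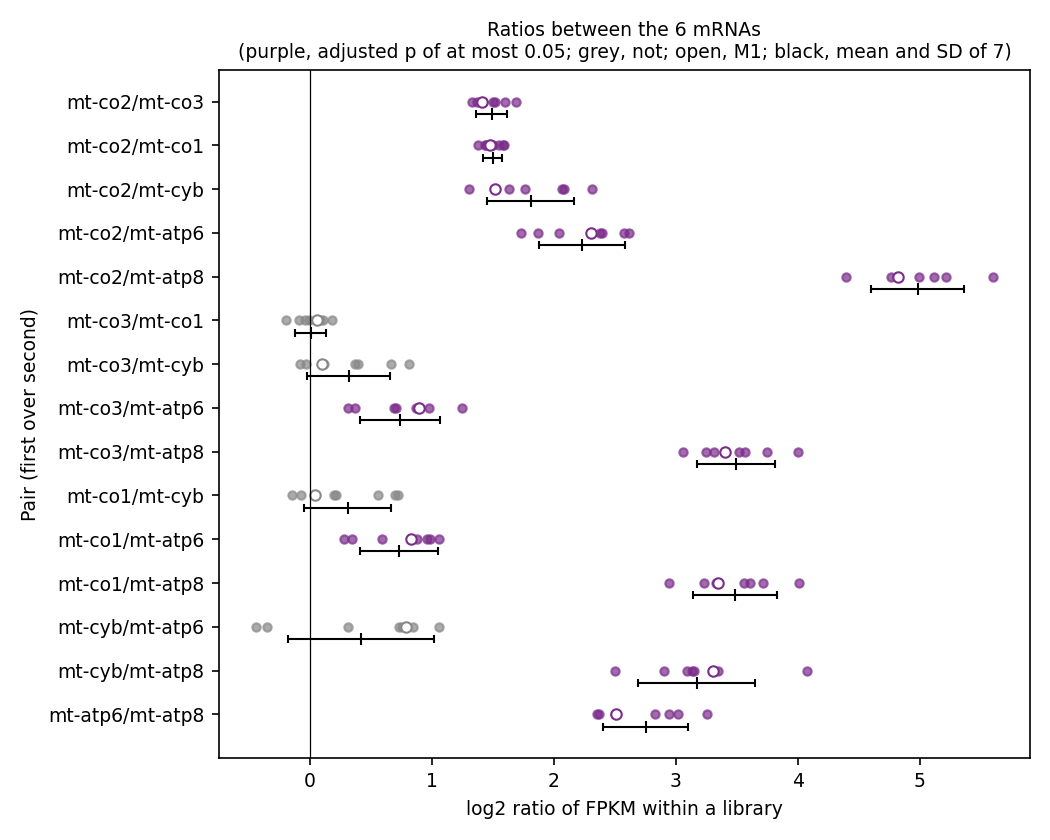
Log2 ratio of FPKM within a cell for the 15 pairs of the 6 mRNAs, with 1 point per library (open for M1, purple where the pair passed the test and grey where it did not) and the mean and SD over the 7 other libraries in black. The pair mt-co2 and mt-co1 is tightest, at 1.50 ± 0.081 (SD, n = 7), and mt-cyb against mt-atp6 is widest, with points on both sides of 0.

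The 6 mRNAs were high or low together in a cell. Over the 15 pairs, Pearson's correlation of log2 FPKM across the 7 cells had a median of 0.711, with a range of 0.426 to 0.996, and Spearman's a median of 0.643. Each mRNA was also set against the mean of the other 5. There, mt-co3 came to 0.973, mt-co1 to 0.951, mt-co2 to 0.943, mt-cyb to 0.826, mt-atp8 to 0.713 and mt-atp6 to 0.653. All values of a cell share its depth, its amplification and the total they are set against, so these correlations are given as a description.

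Most other features of at least 10 FPKM correlated negatively with the 6. Of the 1113 features with at least 10 FPKM in each of the 7 cells, the median correlation with the mean log2 FPKM of the 6 was -0.61. The 5 most alike were mt-nd4 (0.976), mt-nd3 (0.933), mt-nd5 (0.933) and mt-nd2 (0.927), which encode subunits of complex I, and the feature with the highest median FPKM (0.812, and 0.418 without the 2 cells farthest from its median). mt-nd6, the only mtDNA-encoded mRNA read from the other strand in vertebrates, came to 0.280. The summed myelin markers, mostly mbpa, had a correlation of 0.738 with the 6 over 7 cells and -0.147 without the 2 cells farthest from their median. The number of features with at least 1 FPKM had -0.678 and -0.0547. Their part in the levels was not tested.

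As deposited, the 6 mRNAs varied less between cells than most features of a high level. The SD of log2 FPKM was 0.39 for mt-atp8, 0.39 for mt-atp6, 0.41 for mt-co1, 0.46 for mt-co3, 0.48 for mt-co2 and 0.65 for mt-cyb (n = 7), with a median of 0.43. Over the 390 features with a median of at least 100 FPKM and a value above 0 in each cell the median was 0.77, and all 6 lay below it. This order depended on the scaling. With the highest feature left out and the rest rescaled, the median of the 6 was 0.65 against 0.68, with 4 of 6 below. With the 13 mtDNA-encoded mRNAs left out of the total too, it was 0.85 against 0.63, with 0 of 6 below. Whether these mRNAs are steadier or more variable than other features therefore cannot be said apart from the total chosen, while the ratios between them do not change with it.

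**Figure D4:**
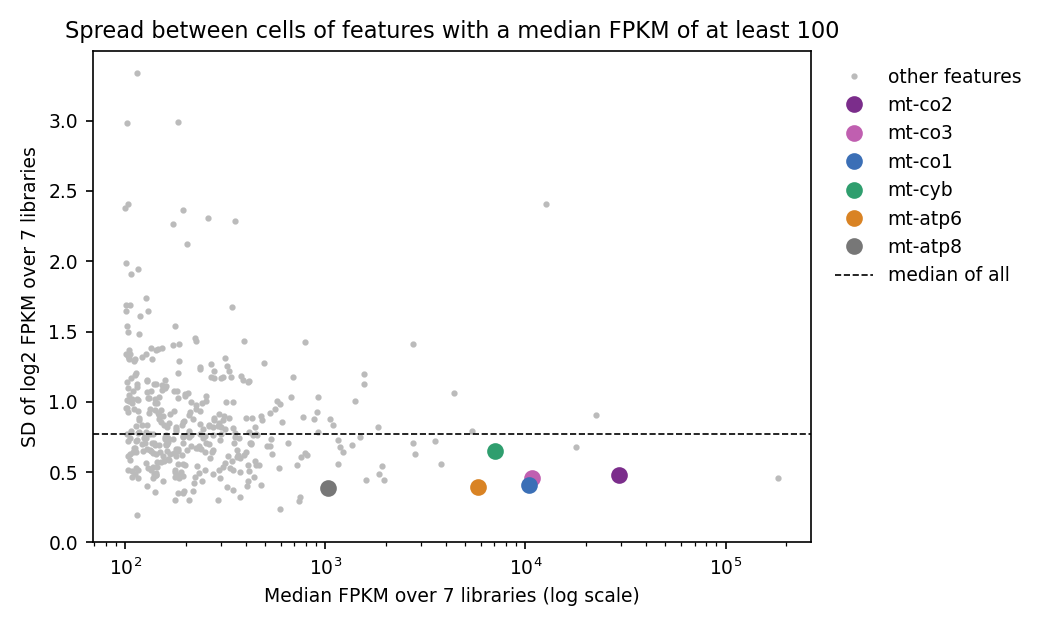
SD of log2 FPKM over the 7 libraries without M1 against median FPKM (log axis) for 390 features, as deposited, with the 6 mRNAs in colour and the median of all as a dashed line. The features have a median of at least 100 FPKM and a value above 0 in each of the 7. The 6 lie between 0.39 and 0.65, below the line at 0.77, an order that turns round when the mtDNA-encoded mRNAs and the highest feature are left out of the total.

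The 7 mtDNA-encoded mRNAs of complex I, the enzyme that takes electrons from NADH, lay lower than 5 of the 6. In each of the 8 libraries mt-co1, mt-co2, mt-co3, mt-cyb and mt-atp6 were above all 7, and the lowest of the 5 exceeded the highest complex I mRNA between 1.79-fold in M16 and 3.18-fold in M2. The highest of the complex I mRNAs by median was mt-nd2, at 2791 FPKM over the 7 cells, and the lowest mt-nd6, at 758 FPKM. mt-atp8 fell among them, below 5 to 7 of the 7 in each library. Summed, the 6 exceeded the 7 complex I mRNAs 5.87 ± 0.749-fold (SD, n = 7), between 4.62-fold in M9 and 6.70-fold in M2. No test across features was made, and these are values per length within a cell.

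Along the mtDNA, mt-co1, mt-co2, mt-atp8, mt-atp6 and mt-co3 follow each other in this order, with complex I genes on both sides, and mt-cyb stands apart after mt-nd5 and mt-nd6. The levels did not follow this order. The shared messenger of mt-atp8 and mt-atp6 lies between mt-co2 and mt-co3, and the values of each were below those of mt-co2 and mt-co3 in every library. mt-co3 had a median of 10750.0 FPKM, against 1844 FPKM for mt-nd3, the next protein-coding gene after it.

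Nuclear-encoded subunits of the same complexes had far lower mRNA levels. Of 46 nuclear genes listed for complexes III, IV and V, 37 were matched to 1 ID, and 33 had at least 1 FPKM in each of the 7 cells. Within each library and complex, the lowest mtDNA-encoded mRNA exceeded the highest nuclear one measured. The groups therefore did not overlap in any of the 8 libraries, though listed genes without a matched ID were not compared. The mtDNA-encoded mRNAs of these complexes ranked between 2 and 70 among 37287 features, so nearly all other features lay below them too. Lying below them was therefore not particular to the nuclear subunits of these complexes.

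For complex III, mt-cyb exceeded the mean of its 10 matched nuclear partners 128.5-fold in the median cell, between 45.6-fold in M5 and 630.4-fold in M17. The highest nuclear mRNAs were those of the small subunits uqcrh (median 147 FPKM), uqcr11 (106 FPKM) and uqcrq (89.4 FPKM), and the lowest was uqcrb (0.580 FPKM). For complex IV, the mean of mt-co1, mt-co2 and mt-co3 exceeded that of 12 nuclear mRNAs 87.8-fold, between 41.0-fold in M6 and 535-fold in M17. These 12 were matched of 18 listed. With only the 9 of at least 1 FPKM in every cell, the median log2 ratio was 6.06, against 6.46 with all 12. cox7c (576 FPKM), cox5aa (345 FPKM) and cox6c (339.8 FPKM), which encode small subunits around the catalytic core, were highest by median, and cox7a1 had a median of 0 FPKM.

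For complex V the gap was smaller. The mean of mt-atp6 and mt-atp8 exceeded that of 15 nuclear mRNAs, matched of 18 listed, 24.4-fold in the median cell, between 7.49-fold in M6 and 99.4-fold in M17. This mean is lowered by mt-atp8, with a median of 1028 FPKM against 5809 FPKM for mt-atp6. The part of the short length of mt-atp8 in this was not tested. Here the nuclear mRNAs atp5po (236 FPKM), atp5f1e (212 FPKM) and atp5mc3b (199.7 FPKM) were highest by median and atp5pd (64.6 FPKM) lowest. mt-atp8 came nearest to its partners in M6, where it exceeded the highest of them 1.35-fold.

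The ratio of mtDNA-encoded to nuclear-encoded mRNA varied much more between cells than the ratios among the 6. The SD of its log2 was 1.44 for complex III, 1.46 for complex IV and 1.36 for complex V (n = 7). M16 and M17 had the highest ratios in all 3 complexes, and M6 was lowest or second lowest. Pearson's correlation between the mtDNA-encoded and the nuclear-encoded mean, on the log2 scale over 7 cells, was -0.487 for complex III, -0.844 for complex IV and -0.585 for complex V. For the 1113 features above, the median with the mean of the 6 was -0.61 (quartiles -0.76 and -0.36). That is for single features, while the values by complex are for means over several nuclear mRNAs. The measures are therefore unlike, and none of the 3 values is read as particular to its complex. As deposited, each of the 35 nuclear mRNAs whose SD could be computed varied more than any of the 6, with a median SD of log2 FPKM of 1.22. Most features did so too. Of 3092 features with a median of at least 10 FPKM and a value above 0 in each of the 7 cells, 13.5% varied less than mt-cyb, the most variable of the 6. A further 171 features of that median were listed at 0 in a cell and left out. The median SD of the 3092 features was 1.11. The count of nuclear mRNAs also depended on the total. With the highest feature left out, 28 of 35 varied more than any of the 6, and 14 of 35 with the mtDNA-encoded mRNAs left out as well. M17, with the highest ratios, also had the fewest features with at least 1 FPKM, 7224, and M6 the most, 13643. The part of detection in the ratios was not tested.

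**Figure D5:**
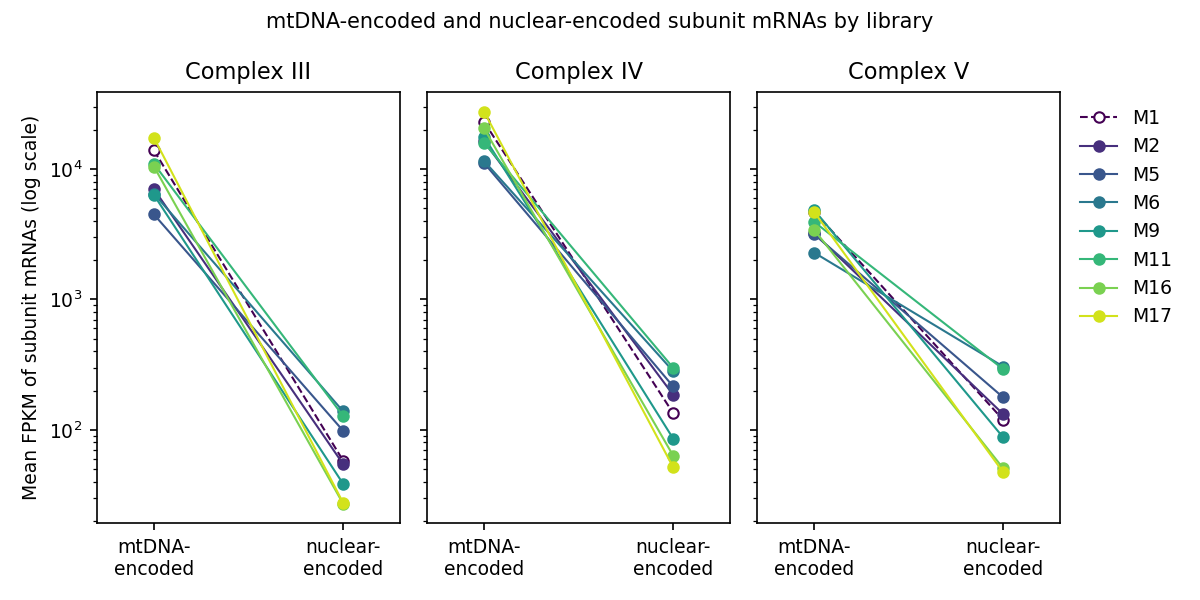
Mean FPKM (log axis) of the mtDNA-encoded mRNAs and of the nuclear-encoded subunit mRNAs of complexes III, IV and V in each of the 8 libraries, a line joining the values of 1 library (dashed and open for M1). The mtDNA-encoded mean is above the nuclear-encoded one in every library, with median ratios of 128.5, 87.8 and 24.4 for complexes III, IV and V over the 7 libraries without M1.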

How the data were processed

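RNA of single CaD neurons was amplified with an oligo-dT based kit and sequenced in pairs of 150 bp reads. The authors deposited FPKM, that is read counts divided by gene length and library size, in a table of 8 columns, all of which were used. The submitters' processing notes name HISAT2 2.0.4 and HTSeq 0.9.1, while the study's methods name HTSeq v0.6.0. The genome build and the annotation are not given in the sources used here.

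The whole reads behind each FPKM value, the library totals and the feature lengths were recovered from the ratios of values between libraries, and added up to between 99.8% and 99.9% of the totals. Recovery and tests were checked on simulated data. Gene names came from a reference table of symbols, with synonyms from the RefSeq table of GRCz12tu. A symbol was paired with 29178 of 37287 features and with all 6 members. Coordinates of the RefSeq table served only to order the protein-coding genes along the mtDNA, since the files name no build. No sequences were used, since no sequence table was used here. Nuclear copies of mtDNA and reads with several matches could not be assessed.

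All libraries form 1 group, each taken as a separate cell from a separate fish, and no test between conditions was made. For M1 this is uncertain, since it may share reads with M11, M16 and M17. The pair test is a two-sided exact sign-flip permutation test with Benjamini-Hochberg adjustment at 0.05, on log2 FPKM with no pseudocount. Named were the 6 members, the 3 highest and the lowest of each nuclear list, the other mtDNA-encoded mRNAs and the 5 features most alike. The members and gene lists were chosen with earlier results of these data known. Alternatives were other totals, a pseudocount of 1, Spearman's correlation, medians over nuclear mRNAs, a minimum of 1 FPKM, and other sets of libraries. Leaving the mtDNA-encoded mRNAs out of the total, and rescaling the nuclear-encoded mRNAs, were chosen after seeing the data. Scripts ran under Python 3.11.15 with scipy 1.17.1, numpy 2.4.6, matplotlib 3.10.9 and pandas 2.3.3.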

Additional observations from a re-analysis of the deposited data

Results flagged for a closer look

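In a group of 8, a library stood apart when its gap to the nearest other exceeded the limit of Dixon's test. This was so for 2 of 29 measures, and chance alone passes this limit in about 1 in 20. M1 had 47723986 counted reads, far above the other 7 libraries. The level of mt-cyb was 16.9 times that of mt-atp8 in M17, against between 5.67 and 10.2 times in the other 7 libraries. On this ratio M17 still stood apart with M1 left out. The check used the ratio itself, not its log2 as in the pair test. On the log2 scale the values were 4.08 in M17, 3.35 in M16, the next highest, and 2.50 in M9, the lowest. Whether M17 stands apart on that scale was not tested, so no conclusion is drawn from this flag. In M17 mt-cyb was at its highest level of all libraries, 17393 FPKM, while mt-atp8, at 1028 FPKM, was below its level in M1, M9 and M11.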

How the results depend on the processing

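Of 92 values of the 8 main results under alternatives, 86 stayed within the limit set for the result and 6 moved. For the share and the ratios of complexes III, IV and V, the limit was the SD between cells. For the SDs and the correlation it was the SD between the mRNAs or between the pairs, not between cells. For the number of pairs that differed, it was a fold change of that number. The median share of the 6 mRNAs, 9.97% of summed FPKM, was 15.8% without the highest feature in the total, 19.3% without that feature and the mtDNA-encoded mRNAs, and 5.98% of counted reads. The median SD of log2 FPKM, 0.43, was 0.65 with the highest feature left out and 0.85 with the mtDNA-encoded mRNAs left out too. The median correlation, 0.711, was 0.926 with both left out of the total. Leaving out 1 of the 7 libraries at a time gave a share between 9.94% and 11.02%, an SD between 0.38 and 0.47, an SD of ratios between 0.32 and 0.37, and a correlation between 0.656 and 0.826. It gave median log2 ratios of mtDNA-encoded over nuclear-encoded mRNA between 6.71 and 7.18 for complex III, 6.10 and 7.07 for complex IV, and 4.39 and 5.20 for complex V. The 11 pairs that differed did so in all 9 settings. Each had the same direction in 7 of 7 cells, so leaving out 1 library or adding a pseudocount could not change its call. Only adding M1 could have done so. The pair mt-co3 over mt-cyb passed only with all 8 libraries, which may not be independent because M1 may share reads with others. With M1 kept and M11, M16 and M17 left out, 5 libraries allow no p below 0.0625 by exact permutation, so the pairs were not tested. Reads per base of annotated coding length were not run, since no annotation could be tied to the files. No paired analysis was possible because all libraries belong to 1 group. Read depth limited no value of the 6, with at least 1034 reads each, but error of the amplification was not measured. The 8 libraries and the total that FPKM are set against limit what can be said of spread.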

Other observations

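The mRNAs of nuclear-encoded proteins that transcribe, stabilise or degrade mtDNA-encoded RNA were at low to moderate levels. Over the 7 cells, slirp and lrpprc, whose products form a complex that stabilises mitochondrial mRNAs in mammals, had medians of 79.0 and 12.2 FPKM and were above 1 FPKM in 7 of 7 cells. tfam, the packaging and transcription factor of mtDNA, had a median of 10.9 FPKM and tfb2m, the partner of the mitochondrial RNA polymerase, 5.77 FPKM, each above 1 FPKM in 6 of 7. The polymerase itself, polrmt, had a median of 0.346 FPKM and was above 1 FPKM in 2 of 7. tefm, its elongation factor, had a median of 0.0929 FPKM and was above 1 FPKM in 2 of 7, and supv3l1, the helicase of mitochondrial RNA degradation in mammals, a median of 1.64 FPKM and was above 1 FPKM in 4 of 7.

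The reads that M1 held beyond those of M11, M16 and M17 together were 34.8% of its reads on the 6 mRNAs, against 28.6% of all its counted reads. On single mRNAs they were between 33.3% for mt-co2 and 42.9% for mt-atp8. Taken as a library of their own, these further reads gave mt-co2 41.4%, mt-co3 16.5%, mt-co1 16.2%, mt-cyb 14.5%, mt-atp6 9.60% and mt-atp8 1.89% of the FPKM of the 6, the same order as the means over the 7 other libraries.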
